A study of Mus musculus with 24 samples.

Results

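The genes described here are the Wnt ligands, receptors and modulators of the mouse, defined by name: symbols that begin with Wnt, Fzd, Sfrp, Dkk or Dvl and go on with a number, together with Lgr4, Lgr5, Lgr6, Lrp5, Lrp6, Axin1, Axin2, Lef1, Tcf7, Tcf7l1, Tcf7l2, Ctnnb1, Rnf43 and Znrf3. RefSeq lists 54 genes that meet the rule. Of these, 53 had a probe paired with their symbol, out of 19057 named genes on the array, and Tcf7 had none. The rule used no measured level. They were read by 101 probes, and the question was in which cells of the olfactory mucosa each of them was measurable and how their levels differed between cell populations and after removal of an olfactory bulb.

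Wnt proteins are secreted, lipid-modified ligands that bind a Frizzled receptor (Fzd) and, for the branch that acts through beta-catenin (Ctnnb1), a co-receptor Lrp5 or Lrp6. Dishevelled (Dvl) passes the signal on, the Axin destruction complex is held back, and beta-catenin enters the nucleus to act with Tcf and Lef factors, while other branches steer cell polarity. Sfrp and Dkk proteins are secreted modulators, Lgr receptors bind R-spondins, and Rnf43 and Znrf3 remove Frizzleds from the surface. In the olfactory epithelium, which makes neurons throughout life from basal cells, Lgr5 is known as a marker of globose basal cells, the proliferating precursors.

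Bead array expression was measured in 24 samples, with 3 samples in each of 8 groups. The Sus group is the GFP-high, CD54-negative sort and the Sox2GBC group is the GFP-low sort negative for E-cadherin and CD54, both from heterozygous offspring of ∆Sox2-GFP reporter mice crossed to FVB/NJ. The Neurog1-OBX and Neurog1-Ctrl groups are GFP-positive sorts from heterozygous Neurog1-GFP by FVB/NJ offspring, and the OMP-OBX and OMP groups are GFP-positive sorts from ∆OMP-GFP by CD-1 offspring, where OBX denotes mucosa on the side of a unilateral bulbectomy 3 weeks after surgery. The OM group is unsorted, viable mucosal cells of wild-type F1 mice (129S1/SvImJ x C57BL/6J), and mREF is commercial RNA pooled from 11 mouse cell lines. All mice were 8 to 12 weeks old, each mucosal sample pooled 2 to 7 mice, and dead cells that took up propidium iodide were gated out. A reporter marks every cell in which its promoter is or recently was active, so a sort is defined by GFP level, size and surface marker, not by cell type alone. Sus and Sox2GBC share 1 reporter line and each bulbectomy comparison stays within 1 line, but in every other comparison mouse line and cell population cannot be told apart.

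Of 45281 probes on the array, each sample detected 33.9% to 48.3%, and replicates correlated with each other at 0.944 to 0.991. The first replicates of Sus, OMP, OM and mREF stood apart by a background noise below that of all other arrays, and the counts below were repeated without these 4. The number of arrays limits the precision, and p-values measure the spread between samples only. Levels are log2 intensities after background correction and quantile normalisation, each for the brightest detected probe of its gene, and they compare groups, not genes. A difference was called where limma's adjusted p, over all genes tested, was under 0.05.

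The labels were checked against markers. All 6 sustentacular markers were detected on every array of every mucosal group, and their summed intensity was highest in Sus at 186335 to 201093, against 86709 to 134718 in Sox2GBC, 59042 to 74183 in Neurog1-OBX, 37301 to 64448 in Neurog1-Ctrl, 41431 to 61717 in OMP-OBX, 63266 to 108889 in OMP and 100928 to 174756 in OM. These transcripts were thus measured in every sort. Neurog1 was detected on all 3 arrays of each Neurog1 group and on none elsewhere in the mucosa. Omp, a mature neuron marker, was detected on all arrays of Sox2GBC at a mean of 15.28, close to its 15.27 in OMP. The whole list of 6 mature neuron markers, Omp among them, was lower there. It summed to 65937 to 82203 in Sox2GBC, against 122687 to 137927 in OMP. Sox2 itself averaged 9.73 in Sus, 6.23 in Sox2GBC and 8.40 in OM. Kit and Top2a, from the list for globose basal and dividing cells, were also highest in Sus, with means of 10.52 and 10.08, against 9.005 and 8.29 in Sox2GBC. The third tested gene of that list, Neurod1, was at 5.28, 6.91 and 6.50 in Sus, against 7.36, 6.17 and 7.21 in Sox2GBC, and did not pass (-0.69 ± 0.39, adjusted p = 0.155). Kit and Top2a varied within Sus, where Kit was at 9.22, 11.17 and 11.17 and Top2a at 8.31, 10.83 and 11.11 on the 3 arrays. In these bulk samples fewer cells of a type and less RNA per cell cannot be told apart.

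Of the 53 genes, 26 were detected (detection p under 0.01) on at least 3 of the 21 mucosal arrays and were tested, 5 were detected on 1 or 2 arrays, and 22 on none. Among 19 ligands, Wnt3a, Wnt4, Wnt5a, Wnt7b and Wnt10a were tested. Of the 10 Frizzled receptors, Fzd2, Fzd3, Fzd5, Fzd6, Fzd7, Fzd8 and Fzd10 passed, as did both co-receptors, Lgr5 and Lgr6 of the 3 Lgr receptors, and Rnf43 but not Znrf3. Only Dkk3 and Sfrp1 were tested of the 8 secreted modulators. The transducers Axin1, Axin2, Ctnnb1, Dvl1 and Dvl2 and the transcription factors Tcf7l1 and Tcf7l2 passed, whereas Dvl3 and Lef1 were not detected on any mucosal array. A gene not detected was under the array's background and may still be present at a low level. That background noise ran from 4.55 (Sus replicate 1) to 20.8 (Neurog1-Ctrl replicate 1) over the mucosal arrays. A level detected on 1 array could thus go undetected on another, and counts of detecting arrays are not strictly comparable between groups. Wnt3a reached the filter only through OM, Fzd10 only through OMP, and Lgr6 and Wnt10a fell below it without Sus or without OM, and Dvl2 without any of Sus, OMP or OM, so that a difference in such a gene was partly set by the filter.

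**Figure D1:**
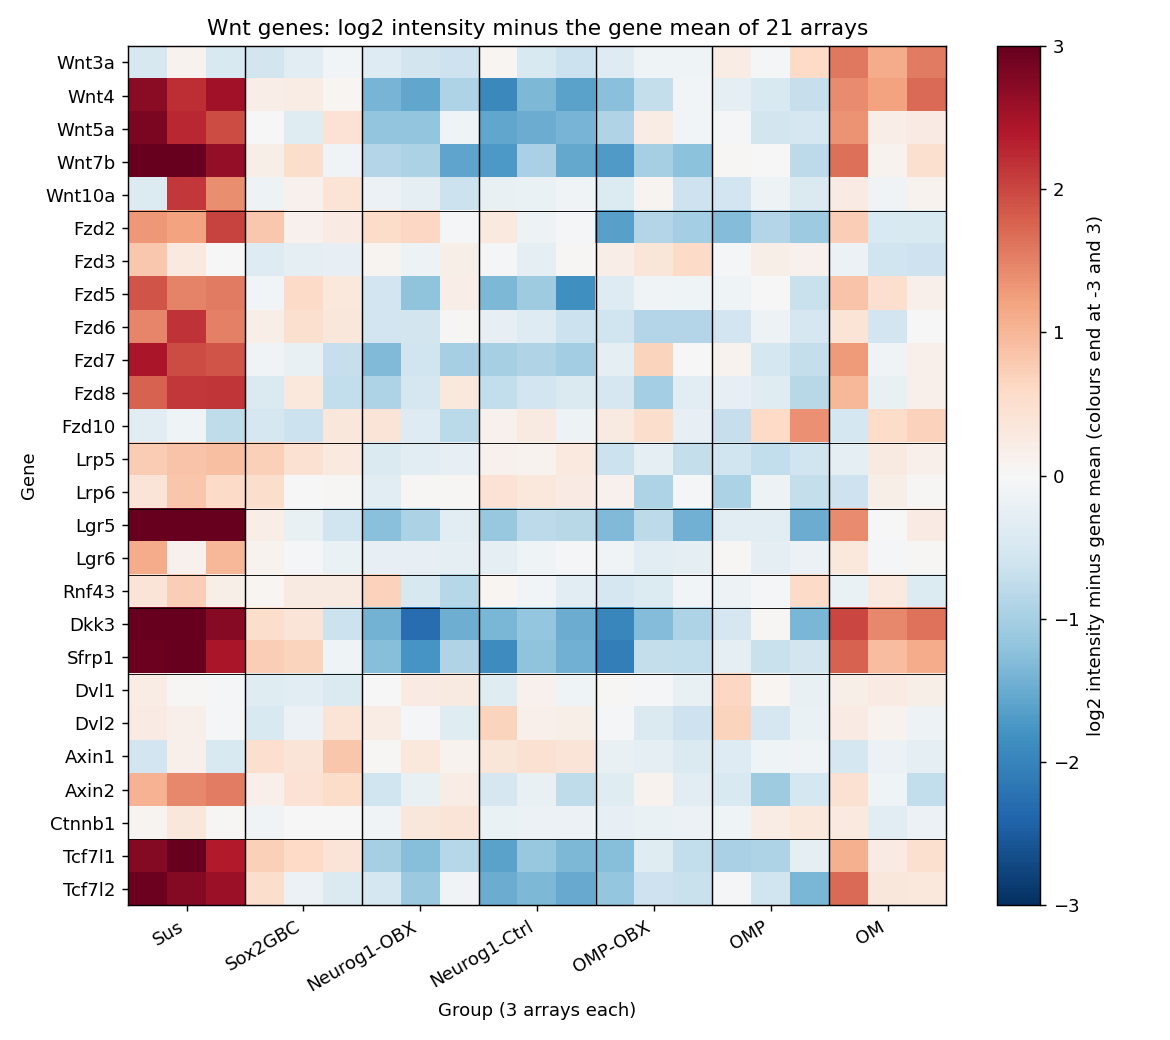
Log2 intensity of the 26 tested Wnt genes on each of 21 mucosal arrays, minus the mean of the gene, with genes down the page by role and the 3 arrays of each group side by side. Most rows are red in Sus, paler red in OM and blue in the Neurog1 and OMP sorts, and Axin1, Ctnnb1, Dvl1 and Dvl2 stay pale.

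Sus had the highest mean for 19 of the 26 tested genes (73.1%), against 28.6% of all genes tested. The range of the 7 group means had a median of 2.26 log2 over the 26 genes and of 1.38 over all genes. The range was 5.02 for Dkk3, 4.49 for Lgr5 and 4.32 for Sfrp1. At the other end, Ctnnb1, the central transducer itself, ranged over 0.41 by its brightest probe. Its other passing probes differed more in some comparisons below. Axin1 was highest in Sox2GBC, Wnt3a and Dvl1 in OM, Dvl2 in Neurog1-Ctrl, Ctnnb1 in Neurog1-OBX, Fzd10 in OMP and Fzd3 in OMP-OBX.

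Promoter sequence is shown for Wnt4 and Tcf7l1, which are among the members higher in Sus below. It is also shown for members that hold the core letters bound by Tcf and Lef factors. These are CTTTGAT or, on the other strand, ATCAAAG. The RefSeq windows (GRCm38.p6, 250 bases before to 50 after a transcript start) covered 36 of the 53 genes and 13 of the 26 tested. The core stood in the windows of 2 of the 36, Wnt11 and Wnt5b, which is 5.56% against 4.29% of 27025 genes of the table. Neither gene was tested here. Each line below gives the 150 bases before the start, 5′ to 3′ on the gene's strand, with the core in capitals. Wnt4 lies at chr4:137277485-137277634 (plus strand), Tcf7l1 at chr6:72789046-72789195 (minus), Wnt11 at chr7:98834962-98835111 (plus) and Wnt5b at chr6:119449387-119449536 (minus).
Wnt4: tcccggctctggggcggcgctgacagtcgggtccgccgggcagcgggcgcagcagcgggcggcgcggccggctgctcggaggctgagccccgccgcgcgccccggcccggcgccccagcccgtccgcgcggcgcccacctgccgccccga
Tcf7l1: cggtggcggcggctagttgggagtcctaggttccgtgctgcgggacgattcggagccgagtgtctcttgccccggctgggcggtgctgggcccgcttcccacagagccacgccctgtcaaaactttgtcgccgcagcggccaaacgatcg
Wnt11: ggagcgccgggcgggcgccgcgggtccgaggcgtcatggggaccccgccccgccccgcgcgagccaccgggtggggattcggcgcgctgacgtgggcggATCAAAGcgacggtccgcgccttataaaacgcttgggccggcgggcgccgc
Wnt5b: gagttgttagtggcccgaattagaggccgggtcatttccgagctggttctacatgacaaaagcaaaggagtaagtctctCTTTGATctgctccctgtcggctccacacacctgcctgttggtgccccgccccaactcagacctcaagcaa
No window of the 13 tested genes held these letters. That says only that they are not in these windows.

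The Sus sort was compared first with Sox2GBC, the low-GFP sort of the same reporter line. In Sus, 16 of the 26 tested Wnt genes were higher and 1 was lower, so that 65.4% were called, against 52% of all 11870 genes tested. Of all genes 23.1% were called higher and 28.8% lower. The Sus and Sox2GBC arrays did not overlap for 20 of the 26, against 59% of all genes. The genes higher in Sus took in 3 ligands, 6 Frizzleds, both Lgr receptors, both secreted modulators, both Tcf factors and Axin2. Against OMP, the sort of mature neurons, 18 of 26 were higher in Sus and none lower (69.2% called, against 59.9% of all genes, of which 29% were higher and 30.9% lower), and the arrays did not overlap for 17, against 60% of all genes. Both comparisons use the same Sus arrays, so the 2 counts are not independent.

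Lgr5, the R-spondin receptor that marks globose basal cells, was at 9.09, 9.75 and 9.33 on the 3 Sus arrays, 6.28, 5.84 and 5.48 on the Sox2GBC arrays and 5.76, 5.76 and 4.59 on the OMP arrays. Every Sus array was above every other mucosal array. The difference was 3.53 ± 0.37 (log2, SE) from Sox2GBC and 4.02 ± 0.37 from OMP, with limma adjusted p of 3.1e-07 and 1.85e-08. Lgr5 was detected on 3 of 3 Sus arrays, 1 of 3 in Sox2GBC, 1 of 3 in Neurog1-OBX, 0 of 3 in Neurog1-Ctrl, 0 of 3 in OMP-OBX, 2 of 3 in OMP and 3 of 3 in OM. The order of the means was Sus at 9.39, OM at 6.62, Sox2GBC at 5.87, OMP at 5.37, Neurog1-OBX at 5.24, Neurog1-Ctrl at 5.16 and OMP-OBX at 4.90. Below Sus, the arrays of each neighbour in that order overlapped those of the next. A second Lgr5 probe, below the detection filter, differed by 0.77 from Sox2GBC. Its relative Lgr6 was at 6.03, 5.05 and 5.92 in Sus and at 5.04, 4.88 and 4.72 in Sox2GBC. Lgr6 was detected on 2 Sus arrays and no Sox2GBC array and would have failed the filter without Sus, so its call was partly set by the filter, and it was lost without the filter, when another probe was read (adjusted p = 0.677).

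Among the ligands, Wnt7b, which can signal through beta-catenin, Wnt4, known for its part in epithelial development, and Wnt5a, best known for the other branches, were all higher in Sus. Wnt7b was at 11.83, 11.59 and 10.93 in Sus, 8.47, 8.81 and 8.18 in Sox2GBC and 8.34, 8.32 and 7.50 in OMP. Wnt4 was at 9.76, 9.28 and 9.57 in Sus, 7.27, 7.27 and 7.12 in Sox2GBC and 6.78, 6.61 and 6.38 in OMP. The Sus arrays lay above all arrays of both other sorts for each gene. Wnt5a was at 9.09, 8.52 and 8.21 in Sus, 6.25, 5.89 and 6.71 in Sox2GBC and 6.21, 5.71 and 5.77 in OMP, again with no overlap. Against Sox2GBC the log2 differences were 2.96 ± 0.36 for Wnt7b, 2.32 ± 0.25 for Wnt4 and 2.32 ± 0.36 for Wnt5a, and against OMP they were 3.40 ± 0.36, 2.94 ± 0.25 and 2.71 ± 0.36. The other passing probes of these ligands gave 2.85, 2.57 and 1.77 against Sox2GBC. Wnt10a was uneven in Sus at 4.90, 7.42 and 6.69, and was called against OMP (adjusted p = 0.00452, at least 1.65-fold) though the Sus array with the lowest value overlapped the OMP arrays. Wnt10a would have failed the detection filter without Sus. Where no array of a group detected a gene, no exact difference is given here or below, and a called gene has a lower bound on its fold where that bound is above 1. The bound is computed against the higher of the lowest detected signal of each array and the probe's own value. The figures plot the measured difference of every tested gene. Wnt3a did not pass either test, with values of 4.67, 5.25 and 4.68 in Sus and 4.59, 4.80 and 5.05 in Sox2GBC.

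**Figure D2:**
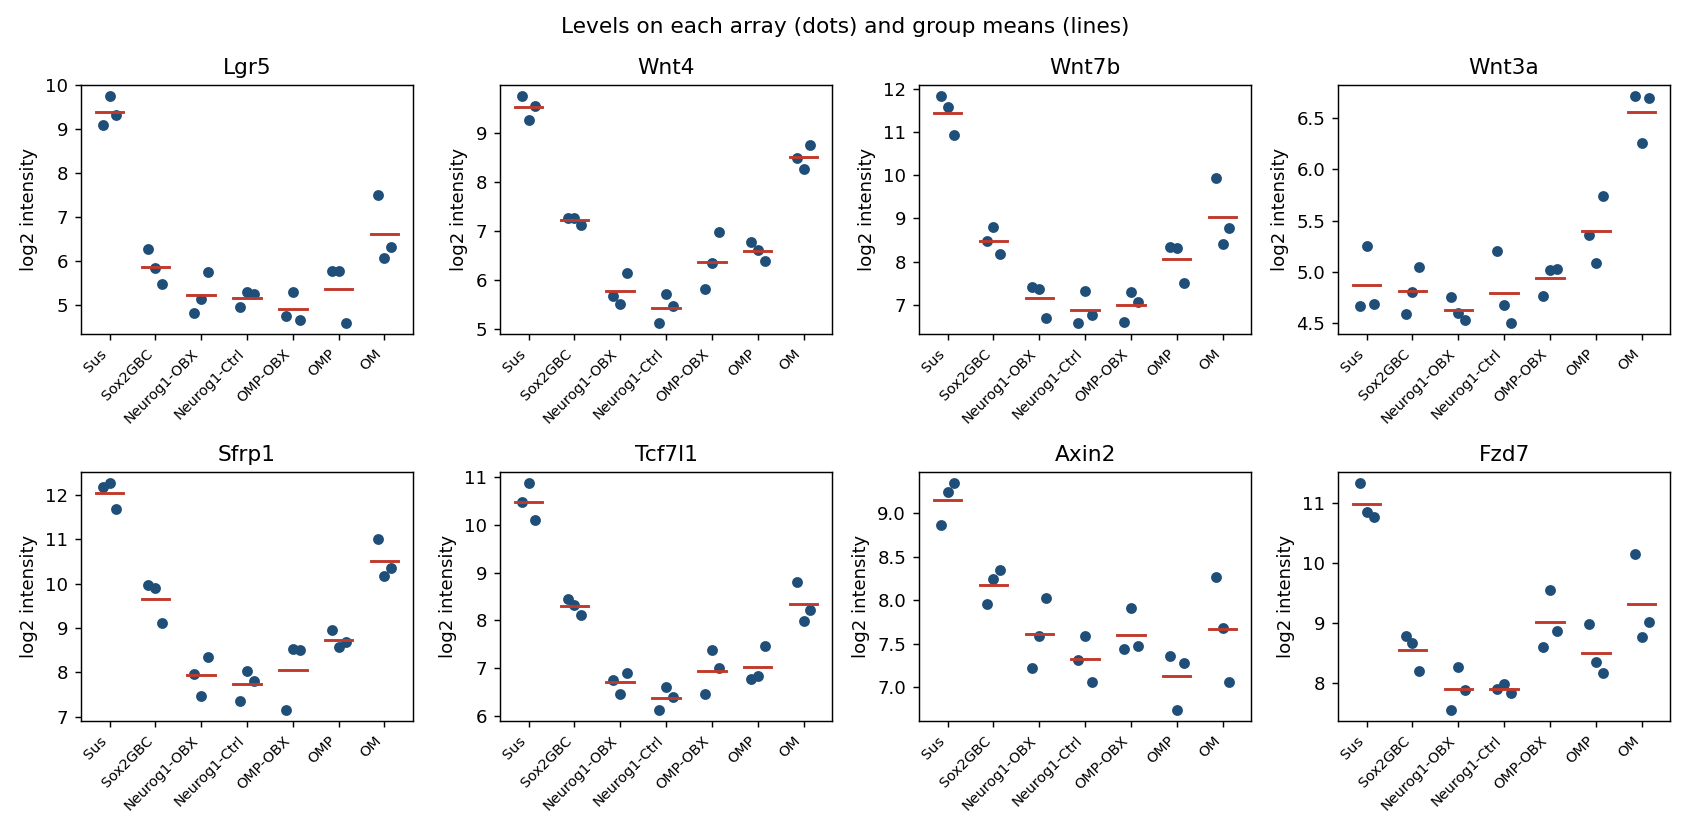
Log2 intensity of 8 Wnt genes on each array (dots, 3 per group) with the group mean (line), each panel on its own axis. Lgr5, Wnt4, Wnt7b, Sfrp1, Tcf7l1, Axin2 and Fzd7 have all Sus arrays above all other arrays, and Wnt3a has its 3 OM arrays above all others.

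Of the 7 Frizzled receptors tested, 6 were higher in Sus than in Sox2GBC. Fzd7 was at 11.34, 10.85 and 10.77 in Sus, 8.79, 8.67 and 8.20 in Sox2GBC and 8.99, 8.36 and 8.18 in OMP, and differed by 2.43 ± 0.32 and 2.48 ± 0.32. Fzd8 was at 7.35, 7.70 and 7.71 in Sus and 5.15, 5.89 and 4.85 in Sox2GBC, where no array detected it, and was at least 2.92-fold higher in Sus (adjusted p = 1.17e-05). In OMP, Fzd8 was detected on 1 array and was at 5.33, 5.22 and 4.74. In both receptors every Sus array was above every array of the other sorts. Fzd6, known for its part in planar polarity, was at 8.77, 9.48 and 8.82 in Sus, 7.50, 7.80 and 7.66 in Sox2GBC and 6.73, 7.17 and 6.82 in OMP. Fzd5 was at 8.50, 8.10 and 8.16 in Sus, 6.53, 7.17 and 6.93 in Sox2GBC and 6.47, 6.60 and 5.93 in OMP. Fzd2 was at 7.59, 7.50 and 8.33 in Sus, 7.11, 6.42 and 6.54 in Sox2GBC and 4.99, 5.41 and 5.21 in OMP, where no array detected it. None of the 3 had overlapping arrays between Sus and either other sort. They differed from Sox2GBC by 1.37 ± 0.25, 1.38 ± 0.30 and 1.12 ± 0.32, and Fzd2 was at least 4.57-fold higher in Sus than in OMP. Fzd3, which guides axons, was at 9.86, 9.36 and 9.07 in Sus and 8.68, 8.78 and 8.82 in Sox2GBC and was called at 0.67 ± 0.19. Its 2 other passing probes gave -1.01 and 1.01, and the call was lost without Sus replicate 1 (adjusted p = 0.0536). Fzd10 had no call against either sort.

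The co-receptor Lrp5 was at 6.62, 6.73 and 6.76 in Sus, 6.57, 6.32 and 6.15 in Sox2GBC and 5.27, 5.13 and 5.27 in OMP, and Lrp6 was at 6.34, 6.78 and 6.53 in Sus, 6.48, 5.96 and 5.98 in Sox2GBC and 5.002, 5.82 and 5.24 in OMP. Both were higher in Sus than in OMP, by 1.48 ± 0.17 and 1.20 ± 0.27 (adjusted p = 4.12e-07 and 0.00088). Against Sox2GBC the differences of 0.36 ± 0.17 and 0.41 ± 0.27 did not pass. A second passing Lrp6 probe gave a larger difference from Sox2GBC, 1.18, and 1.215 from OMP. Rnf43, the ubiquitin ligase that clears Frizzleds, had no call against either sort.

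Both secreted modulators were higher in Sus. Dkk3, a member of the Dickkopf family with an uncertain part in Wnt signalling, was at 11.87, 11.74 and 10.96 in Sus, 8.77, 8.62 and 7.58 in Sox2GBC and 7.71, 8.25 and 6.84 in OMP. Sfrp1, a decoy that binds Wnt proteins, was at 12.18, 12.27 and 11.69 in Sus, 9.98, 9.91 and 9.11 in Sox2GBC and 8.95, 8.56 and 8.68 in OMP. In both genes every Sus array was above every array of the other sorts. Dkk3 differed from Sox2GBC by 3.20 ± 0.37 and from OMP by 3.92 ± 0.37, and Sfrp1 by 2.39 ± 0.35 and 3.32 ± 0.35.

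Inside the cell, both Tcf factors and Axin2 were higher in Sus, while the shared transducers Ctnnb1, Dvl1 and Dvl2 had no call. Tcf7l1, which often represses targets until beta-catenin arrives, was at 10.48, 10.88 and 10.11 in Sus, 8.44, 8.32 and 8.12 in Sox2GBC and 6.77, 6.82 and 7.46 in OMP. Tcf7l2 was at 10.57, 10.38 and 10.20 in Sus, 8.15, 7.44 and 7.19 in Sox2GBC and 7.58, 7.03 and 6.26 in OMP. They were higher than in Sox2GBC by 2.20 ± 0.27 and 2.79 ± 0.37 and than in OMP by 3.48 ± 0.27 and 3.43 ± 0.37. Axin2, a feedback inhibitor widely used as a readout of beta-catenin signalling, was at 8.86, 9.24 and 9.35 in Sus, 7.95, 8.24 and 8.35 in Sox2GBC and 7.36, 6.74 and 7.28 in OMP, and was higher by 0.97 ± 0.28 and 2.02 ± 0.28 (adjusted p = 0.00647 and 3.37e-06). Axin1 was the gene called lower in Sus than in Sox2GBC, at 10.03, 10.77 and 10.16 in Sus, against 11.11, 10.996 and 11.45 in Sox2GBC (-0.86 ± 0.19), but its second probe differed by 0.50 the other way. For Ctnnb1, Dvl1 and Dvl2 no call was made against either sort, with differences of 0.19 ± 0.18 for Ctnnb1 and 0.45 ± 0.19 for Dvl1 from Sox2GBC, while Dvl2 was detected on 1 Sus array and no Sox2GBC array. The other passing probes of Ctnnb1 disagreed and gave 1.65, -0.625 and 0.30 against Sox2GBC. The probe at -0.625 was detected on only 3 mucosal arrays, 1 of them in Sus and 1 in Sox2GBC.

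**Figure D3:**
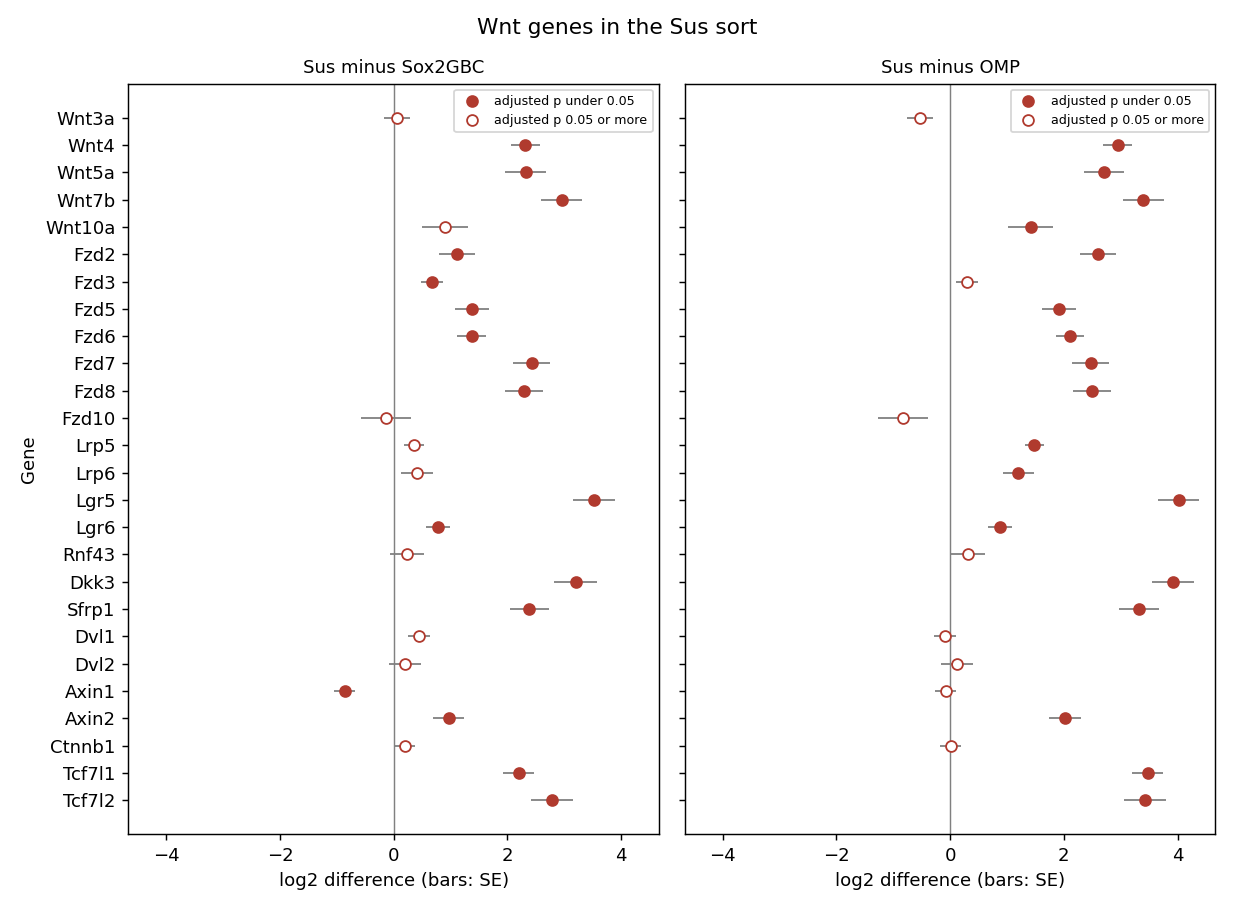
Log2 differences (dots) with SE (bars) of the 26 tested Wnt genes for Sus minus Sox2GBC (left) and Sus minus OMP (right), filled where limma's adjusted p was under 0.05. Lgr5 and Dkk3 lie furthest to the right in both panels, and Axin1 is the filled point left of 0.

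In the wider pathway, genes of 5 further lists were tested against Sox2GBC, and the 4 with the largest called differences were Id2, Pygo1, Draxin and Nkd2. Id2, a helix-loop-helix repressor, was higher in Sus by 2.87 ± 0.36, while Pygo1, a nuclear co-activator of beta-catenin, was lower (-2.87 ± 0.30 on the log2 scale). Draxin, a secreted Wnt antagonist and axon guidance factor, was at least 4.86-fold lower in Sus, and Nkd2, a feedback inhibitor that binds Dishevelled, differed by -2.60 ± 0.29. By list, 4 genes were higher and 2 lower among 11 of Wnt secretion and extracellular modulation, 1 higher and 4 lower among 10 of other receptors and planar polarity, 5 higher and 5 lower among 16 of the destruction complex, 1 higher and 7 lower among 15 nuclear partners, and 5 higher and 1 lower among 9 known targets. Against OMP the 4 largest were Celsr1 (3.58 ± 0.48), a planar polarity cadherin, the cell cycle gene Ccnd1 (3.56 ± 0.31), Pygo1 (-3.31 ± 0.30) and Id2 (3.28 ± 0.36). Markers of other cells moved with these results, and their part in the Wnt values was not tested. Against Sox2GBC, all 6 mature neuron, all 4 immature neuron and all 3 endothelial markers tested were lower in Sus (median log2 differences of -2.17, -3.40 and -1.62). Higher in Sus were 2 of 3 globose basal, 4 of 6 sustentacular, 1 of 3 myeloid and 1 of 4 microvillar markers. Of the horizontal basal markers 1 of 4 was higher and 3 lower, and of the Bowman gland markers 1 of 4 was higher and 2 lower. Against OMP, all 6 mature neuron markers were lower in Sus (median -4.24), all 4 microvillar, all 3 globose basal and 4 of 6 sustentacular markers were higher, 1 of 4 horizontal basal markers was higher and 3 lower, 2 of 4 Bowman gland markers were higher and 1 lower, 1 of 4 immature neuron markers was higher and 2 lower, 1 of 3 myeloid markers was higher and 1 lower, and 1 of 3 endothelial markers was lower. Fibroblast markers summed to 12177 to 14605 in Sus, against 1445 to 2871 in Sox2GBC and 2001 to 3080 in OMP. Of the 4 fibroblast markers tested, Dcn (2.78 ± 0.36) and Pdgfra (at least 1.41-fold) were higher in Sus than in Sox2GBC, Lum did not pass, and Col1a1 was detected on no Sus array and 1 Sox2GBC array and was at least 1.56-fold lower. Against OMP, Dcn was higher and the other 3 did not pass. Within arrays of like background noise, 1 Sus array met 1 or 2 arrays of the other sort. All 17 members called against Sox2GBC and all 18 called against OMP kept their direction there. The calls came from these same arrays, so this outcome was largely set beforehand and adds no support.

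Between the sorts of the neuronal lineage, 10 of the 26 Wnt genes were lower in Neurog1-Ctrl, the immediate neuronal precursors by their reporter, than in Sox2GBC, none was higher and 16 did not pass, which is 38.5% called, against 17% of all genes. Of all genes, 7.98% were called higher and 9.03% lower. The arrays did not overlap for 14 of the 26, against 45.4% of all genes. The 10 were the ligands Wnt4, Wnt5a and Wnt7b, the receptors Fzd5 and Fzd6, both secreted modulators, Axin2 and both Tcf factors. The Sox2GBC arrays are those that Sus was set against.

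Wnt4 was at 5.12, 5.71 and 5.46 in Neurog1-Ctrl, where no array detected it, against 7.27, 7.27 and 7.12 in Sox2GBC, and was at least 2.43-fold lower (adjusted p = 0.00013). Wnt7b stayed detected, at 6.58, 7.32 and 6.76 in Neurog1-Ctrl, against 8.47, 8.81 and 8.18 in Sox2GBC (-1.60 ± 0.36). Wnt5a was at 4.70, 4.78 and 4.87 in Neurog1-Ctrl, against 6.25, 5.89 and 6.71 in Sox2GBC, and at least 1.27-fold lower. The arrays of the 2 sorts did not overlap for any of these ligands. The second passing probe of Wnt5a, detected on no array of either sort, differed by -0.04. Fzd5 was at 5.26, 5.54 and 4.76 in Neurog1-Ctrl, again undetected, against 6.53, 7.17 and 6.93 in Sox2GBC, and at least 1.92-fold lower. Fzd6 was at 7.07, 6.93 and 6.68 in Neurog1-Ctrl, against 7.50, 7.80 and 7.66 in Sox2GBC (-0.76 ± 0.25). For both receptors the arrays of the 2 sorts did not overlap. Sfrp1 was at 7.36, 8.04 and 7.80 in Neurog1-Ctrl, against 9.98, 9.91 and 9.11 in Sox2GBC (-1.93 ± 0.35), and Dkk3 at 6.87, 7.08 and 6.73 in Neurog1-Ctrl, against 8.77, 8.62 and 7.58 in Sox2GBC (-1.43 ± 0.37). Tcf7l1 was at 6.12, 6.59 and 6.39 in Neurog1-Ctrl, against 8.44, 8.32 and 8.12 in Sox2GBC (-1.93 ± 0.27, adjusted p = 0.000113). Tcf7l2 was at 6.14, 6.29 and 6.12 in Neurog1-Ctrl, against 8.15, 7.44 and 7.19 in Sox2GBC (-1.41 ± 0.37). Its second passing probe, detected on no array of either sort, differed by -0.04. Both modulators and both factors were lower on every Neurog1-Ctrl array. Axin2 was at 7.32, 7.59 and 7.06 in Neurog1-Ctrl, against 7.95, 8.24 and 8.35 in Sox2GBC (-0.86 ± 0.28, adjusted p = 0.0391). Lgr5, detected on no Neurog1-Ctrl array and 1 Sox2GBC array, did not pass.

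With median scaling in place of quantile normalisation, 4 of the genes were called (Wnt4, Fzd5, Sfrp1 and Tcf7l1). Leaving out single arrays ended the calls of Fzd6 (any of the 6 arrays, adjusted p up to 0.156), Axin2 (4 arrays: Sox2GBC replicates 2 and 3 and Neurog1-Ctrl replicates 1 and 3, up to 0.16), Dkk3 (Sox2GBC replicates 1 and 2 and Neurog1-Ctrl replicate 3, up to 0.064) and Tcf7l2 (Sox2GBC replicate 1, 0.0694). All 6 sustentacular, all 4 horizontal basal, all 4 Bowman gland and all 4 microvillar markers were lower in Neurog1-Ctrl as well, as were Kit and 1 of 3 markers each of endothelium and myeloid cells, while 1 of 6 mature neuron markers was higher, and their part in the Wnt values was not tested. Outside the rule, the largest called differences were in Celsr1 (at least 2.23-fold lower), the co-repressor Tle2 (-1.76 ± 0.35), Ccnd1 (-1.74 ± 0.31) and Apcdd1 (1.32 ± 0.27), a membrane inhibitor of Wnt signalling, which alone of these was higher in Neurog1-Ctrl.

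**Figure D4:**
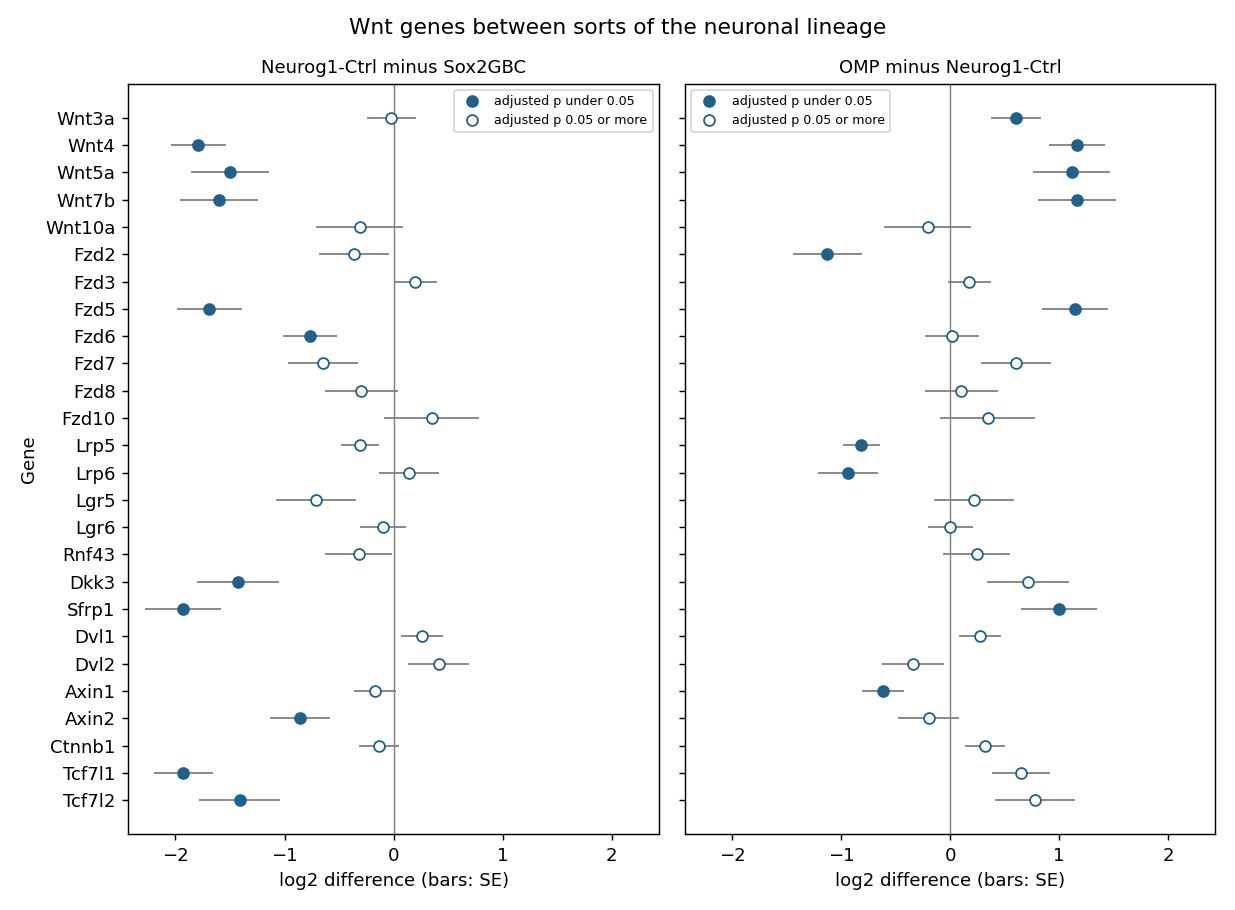
Log2 differences (dots) with SE (bars) of the 26 tested Wnt genes for Neurog1-Ctrl minus Sox2GBC (left) and OMP minus Neurog1-Ctrl (right), filled where limma's adjusted p was under 0.05. Filled points on the left are all below 0, and on the right Wnt3a, Wnt4, Wnt5a, Wnt7b, Fzd5 and Sfrp1 are above 0 and Fzd2, Lrp5, Lrp6 and Axin1 below.

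In OMP compared with Neurog1-Ctrl, 6 of the 26 genes were higher and 4 lower (38.5%, against 36% of all genes), a share near the background. Of all genes 17.9% were higher and 18.1% lower, and the arrays did not overlap for 12 of the 26, against 52.2% of all genes. The ligands Wnt3a, Wnt4, Wnt5a and Wnt7b were higher in OMP, as were Fzd5 and Sfrp1, whereas Fzd2, both co-receptors and Axin1 were lower.

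Wnt4 was at 6.78, 6.61 and 6.38 in OMP, against 5.12, 5.71 and 5.46 in Neurog1-Ctrl (at least 1.57-fold, adjusted p = 0.00148), and Wnt7b at 8.34, 8.32 and 7.50 in OMP, against 6.58, 7.32 and 6.76 in Neurog1-Ctrl (1.16 ± 0.36). Wnt5a, at 6.21, 5.71 and 5.77 in OMP, against 4.70, 4.78 and 4.87 in Neurog1-Ctrl, had a limma adjusted p of 0.0197. By this brightest probe it was detected on 1 OMP array and no Neurog1-Ctrl array, and no bound above 1 could be given. A second passing Wnt5a probe, detected on no array of either sort, differed by 0.05. The arrays of the called ligands did not overlap except for Wnt3a, which was at 5.36, 5.08 and 5.74 in OMP, against 5.20, 4.67 and 4.50 in Neurog1-Ctrl, and was detected on 1 OMP array and no Neurog1-Ctrl array. Fzd5 was at 6.47, 6.60 and 5.93 in OMP, against 5.26, 5.54 and 4.76 in Neurog1-Ctrl, at least 1.32-fold higher. Fzd2 was at 4.99, 5.41 and 5.21 in OMP, where no array detected it, against 6.59, 6.15 and 6.25 in Neurog1-Ctrl, at least 1.64-fold lower. The 2 Frizzleds moved in opposite directions. Lrp5 was at 5.27, 5.13 and 5.27 in OMP, against 5.99, 5.96 and 6.16 in Neurog1-Ctrl (-0.81 ± 0.17), and Lrp6 at 5.002, 5.82 and 5.24 in OMP, against 6.39, 6.27 and 6.20 in Neurog1-Ctrl (-0.93 ± 0.27), with a second passing Lrp6 probe at 0.38. Axin1 was at 10.22, 10.48 and 10.50 in OMP, against 10.97, 11.07 and 10.99 in Neurog1-Ctrl (-0.61 ± 0.19, second probe -0.06). Sfrp1 was at 8.95, 8.56 and 8.68 in OMP, against 7.36, 8.04 and 7.80 in Neurog1-Ctrl (0.997 ± 0.35, second probe 0.11).

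Without OMP replicate 1, 4 genes were called (Wnt4, Fzd5, Fzd2 and Lrp5), and the lost calls had adjusted p of 0.0676 for Lrp6, 0.0679 for Wnt7b, 0.0709 for Axin1, 0.0813 for Wnt3a, 0.0824 for Wnt5a and 0.102 for Sfrp1. Leaving out other single arrays of the 2 sorts also ended the calls of Wnt3a, Wnt5a, Wnt7b, Sfrp1 and Axin1, and the highest adjusted p was 0.182, for Wnt3a without OMP replicate 3. All 4 horizontal basal, 4 of 6 mature neuron, 2 of 6 sustentacular, 2 of 4 fibroblast, 1 of 4 Bowman gland and 1 of 4 microvillar markers were higher in OMP too, all 4 immature neuron and 2 of 3 globose basal markers were lower, and their part was not tested. Of 15 nuclear partners and repressors 1 was higher in OMP and 10 were lower. The largest differences outside the rule were in Draxin (at least 5.21-fold lower), Nkd2 (-2.23 ± 0.29), and the planar polarity genes Vangl2 (-2.10 ± 0.20) and Prickle2 (2.03 ± 0.22).

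Bulbectomy removes the target of the olfactory axons, kills mature neurons and drives their replacement. At 3 weeks, no Wnt gene was called in Neurog1-OBX compared with Neurog1-Ctrl (limma, 0 of 26, against 0.379% of all genes, 0.185% higher and 0.194% lower), and 4 had an unadjusted p under 0.05. The arrays did not overlap for 6 of the 26, against 23% of all genes. The 4 were Lrp5, at 5.43, 5.53 and 5.61 in Neurog1-OBX, against 5.99, 5.96 and 6.16 in Neurog1-Ctrl (adjusted p = 0.253), Fzd5, at 6.03, 5.39 and 6.80 in Neurog1-OBX, against 5.26, 5.54 and 4.76 in Neurog1-Ctrl (0.257), Tcf7l2 (0.85 ± 0.37, 0.424) and Ctnnb1 (0.39 ± 0.18, 0.48). Fzd5 was detected on 1 Neurog1-OBX array and no Neurog1-Ctrl array, and Lrp5 on no Neurog1-OBX array and 2 Neurog1-Ctrl arrays. The other passing probes of Ctnnb1 gave 1.64, 0.29 and -0.004. Those at 1.64 and 0.29 were detected on no Neurog1-Ctrl array. No marker of any list was called.

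In OMP-OBX compared with OMP, again no Wnt gene was called (limma, 0 of 26, against 8.66% of all genes, 4.25% higher and 4.41% lower), and 1 had an unadjusted p under 0.05. This was Wnt7b, at 6.60, 7.30 and 7.07 in OMP-OBX, against 8.34, 8.32 and 7.50 in OMP (-1.06 ± 0.36, adjusted p = 0.0756). Its arrays did not overlap between the groups, as for 7 of the 26 genes and 28.9% of all genes. The 26 differences ran from -1.06 to 0.51. Lgr5 was at 4.75, 5.29 and 4.65 in OMP-OBX, against 5.76, 5.76 and 4.59 in OMP, detected on no OMP-OBX array and 2 OMP arrays, and Axin2 at 7.44, 7.91 and 7.47 in OMP-OBX, against 7.36, 6.74 and 7.28 in OMP (0.48 ± 0.28). The arrays overlapped for Lgr5 but not for Axin2. With array weights Wnt7b passed in OMP-OBX (adjusted p = 0.0448), as it did without OMP replicate 3 (0.0386), and in Neurog1-OBX Ctnnb1 (0.0413), Fzd5 (0.0499) and Lrp5 (0.0455) passed.

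Genes outside the rule did change in OMP-OBX. Prickle2 was lower (-1.39 ± 0.22, adjusted p = 0.000367), while Nkd2 (1.28 ± 0.29), Ctnnbip1 (1.23 ± 0.20), which keeps beta-catenin from Tcf factors, and Vangl2 (1.02 ± 0.20) were higher. Of the markers, 3 of 4 for immature neurons were higher in OMP-OBX and 1 each for sustentacular cells, mature neurons and fibroblasts was lower, with Gap43 at 13.25, 12.65 and 12.81 in OMP-OBX, against 8.57, 10.41 and 9.57 in OMP. Their part was not tested. The response to bulbectomy did not differ between the OMP and Neurog1 sorts past the threshold for any Wnt gene (limma interaction, 0 of 26, against 1.97% of all genes, 1.27% above 0 and 0.699% below), and 3 had an unadjusted p under 0.05, namely, as the OMP response minus the Neurog1 response, Ctnnb1 (-0.73 ± 0.26), Wnt7b (-1.33 ± 0.51) and Lrp5, which no array of either OBX group detected. With array weights Ctnnb1 passed for the interaction (adjusted p = 0.0171).

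**Figure D5:**
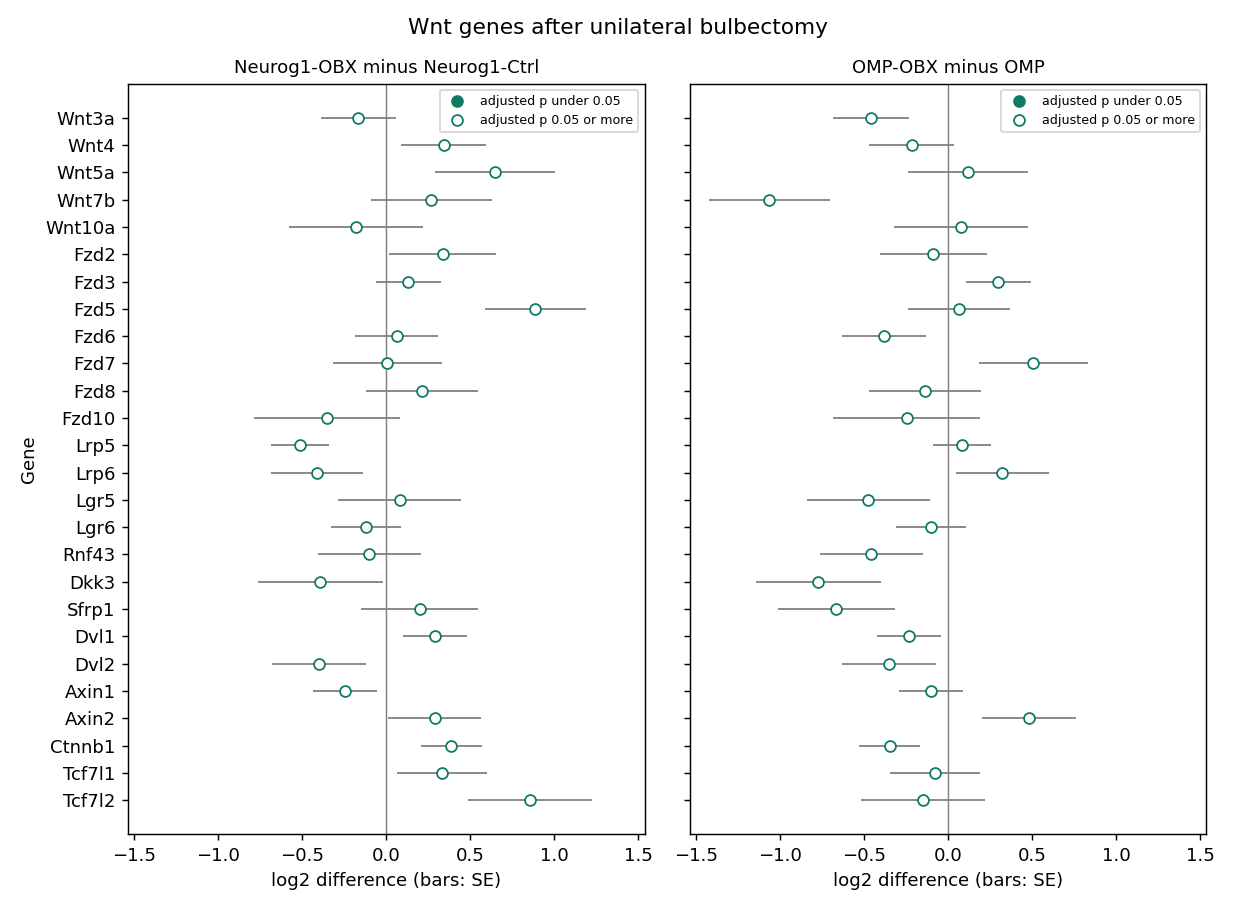
Log2 differences (dots) with SE (bars) of the 26 tested Wnt genes 3 weeks after bulbectomy, for Neurog1-OBX minus Neurog1-Ctrl (left) and OMP-OBX minus OMP (right). No point is filled, since no adjusted p was under 0.05, and Wnt7b on the right lies furthest from 0.

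Compared with the whole mucosa (OM), Sox2GBC had 1 Wnt gene higher and 4 lower of 26 (19.2%, against 32.8% of all genes, 16.9% higher and 15.9% lower). The arrays did not overlap for 7 of the 26, against 43.5% of all genes. Wnt3a, a canonical activator of beta-catenin, was at 4.59, 4.80 and 5.05 in Sox2GBC, where no array detected it, against 6.71, 6.26 and 6.70 in OM, and was at least 1.43-fold lower. It entered the test only through OM, so its call was partly set by the filter. In no other mucosal group was it detected on more than 1 array. Wnt4 was at 7.27, 7.27 and 7.12 in Sox2GBC, against 8.49, 8.27 and 8.77 in OM (-1.29 ± 0.25), and Dkk3 at 8.77, 8.62 and 7.58 in Sox2GBC, against 10.24, 9.66 and 9.85 in OM (-1.60 ± 0.37). Dvl1 was at 9.79, 9.81 and 9.73 in Sox2GBC, against 10.33, 10.40 and 10.33 in OM (-0.58 ± 0.19, adjusted p = 0.0255). None of these 4 genes had overlapping arrays. Axin1 was higher, at 11.11, 10.996 and 11.45 in Sox2GBC, against 10.09, 10.43 and 10.32 in OM (0.90 ± 0.19), but its second probe differed by -0.26. Lgr5 was at 6.28, 5.84 and 5.48 in Sox2GBC, against 7.49, 6.06 and 6.31 in OM, and did not pass (-0.76 ± 0.37, adjusted p = 0.121). The call of Dvl1 was lost without any of the 3 Sox2GBC replicates or OM replicates 2 or 3 (adjusted p of 0.0509 to 0.0761). Array weights gave 9 called genes. All 4 horizontal basal, all 3 myeloid, 5 of 6 mature neuron and 3 of 4 fibroblast markers were lower in Sox2GBC too, all 4 immature neuron, 1 of 3 endothelial and 1 of 3 globose basal markers were higher, and their part was not tested.

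The mean of the 4 sorts Sus, Sox2GBC, Neurog1-Ctrl and OMP was set against OM to ask which Wnt genes were at another level in whole mucosa. Axin1 and Fzd3 were higher in the mean of the sorts, and Wnt3a, Wnt4, Dkk3 and Sfrp1 lower (23.1% of 26, against 19% of all genes, 7.41% higher and 11.6% lower). This mean weighs the log2 levels of the 4 sorts equally, whereas OM is a mixture of cells. A gene high in 1 sort can thus lie below OM in this mean, and a lower call does not place the gene in cells outside the sorts. Sfrp1 averaged 12.05 in Sus, against 10.51 in OM, and Dkk3 11.52 against 9.92. Wnt4 differed by -1.31 ± 0.20 and Dkk3 by -1.33 ± 0.30. Wnt3a ran from 4.50 to 5.74 in the sorts, where 1 array detected it, against 6.26 to 6.71 in OM, and its call was partly set by the filter, which it passed only through OM. Wnt3a was the 1 gene of the 26 with every OM array on one side of every array of the sorts, against 1.9% of all genes, while Wnt4 and Dkk3 in Sus exceeded OM. Sfrp1 (-0.97 ± 0.27), Axin1 (0.45 ± 0.15) and Fzd3 (0.48 ± 0.15) depended on single arrays, with adjusted p of 0.107 and 0.151 for Sfrp1 and Axin1 without OM replicate 1 and of 0.175 for Fzd3 without OM replicate 3. Their other passing probes gave -0.15 for Sfrp1, -0.03 for Axin1, and 0.68 and 0.01 for Fzd3. With all probes averaged, these calls were lost (limma adjusted p = 0.0901, 0.342 and 0.0554, in that order). In the OM group, horizontal basal markers summed to 10507 to 11289, against 494 to 3397 over the 4 sorts. All 4 horizontal basal, all 3 myeloid, all 4 microvillar, 5 of 6 mature neuron, 3 of 4 fibroblast, 2 of 4 Bowman gland and 1 of 6 sustentacular markers were lower in the mean of the sorts, and their part in the Wnt levels was not tested.

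OM was also set against mREF, the pooled cell-line RNA. In a fit on all 24 arrays, normalised together so that OM levels differ slightly from those above, 29 Wnt genes were tested, of which 9 were higher and 11 lower in OM (69%, against 66.2% of all 12495 genes, 34.4% higher and 31.8% lower). The arrays did not overlap for 19 of the 29, against 67.1% of all genes. Sfrp1 was at 10.98, 10.13 and 10.31 in OM, against 5.44, 5.44 and 5.76 in mREF (4.93 ± 0.33), Fzd3 at 8.84, 8.43 and 8.41 in OM, against 5.60, 4.92 and 5.13 in mREF (3.34 ± 0.20), and Wnt7b at 9.91, 8.37 and 8.75 in OM, against 6.20, 6.07 and 6.11 in mREF (2.88 ± 0.34). Lgr5 was at 7.46, 6.04 and 6.29 in OM, against 4.81, 4.64 and 4.53 in mREF, where no array detected it, at least 1.77-fold higher, and Wnt3a was at least 1.69-fold higher. None of these genes had overlapping arrays. Wnt10a was at 5.52, 5.19 and 5.38 in OM, against 9.58, 10.36 and 9.67 in mREF (-4.50 ± 0.39), Fzd2 at 7.004, 5.82 and 5.80 in OM, against 8.54, 8.20 and 9.17 in mREF (-2.43 ± 0.32), and Wnt6, a ligand not tested on the mucosal arrays alone, at 5.55, 4.98 and 5.18 in OM, against 7.36, 7.30 and 7.12 in mREF (-2.02 ± 0.25). Sfrp2, a decoy related to Sfrp1, was at least 2.76-fold lower in OM and was detected on no OM array. The probes of Wnt10a, Wnt6 and Sfrp2 thus gave signal in the cell lines on all 3 arrays while few or no OM arrays detected them. Wnt6 and Sfrp2 passed the filter only through mREF, and Wnt3a only through OM, so that these 3 calls were partly set by the filter. Wnt5a, Fzd5, Fzd6, Lgr6, Lrp5, Tcf7l1 and Tcf7l2 were also lower in OM, and Dkk3, Axin2, Dvl1 and Fzd10 higher, with a second Dvl1 probe at -0.52. Single arrays ended the calls of Axin2, Fzd10 and Fzd6, with adjusted p of up to 0.236 (Axin2 without OM replicate 1), 0.175 (Fzd10 without OM replicate 3) and 0.128 (Fzd6 without OM replicate 2).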

How the data were processed

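The authors deposited bead-summary intensities and detection p-values by probe, per the file headers. GenomeStudio made them, per the submitters' processing notes, which name no version. The authors' deposited table of processed intensities, on a linear scale with column medians of 120.65 to 121.02 and its method not given in the sources used here, was log2-transformed as an alternative. Probes were named through the platform annotation (34885 with 1 symbol, 18 with several, 10378 with none). Intensities were corrected by normexp from detection p-values (offset 16), quantile normalised and log2-transformed in limma 3.58.1 (R 4.3.3). A gene was read by its brightest probe among those with a detection p under 0.01 on 3 or more arrays. A group-means model was fitted on the 21 mucosal arrays (11870 genes), and on all 24 for OM against mREF, with Benjamini-Hochberg adjustment over all genes. Figures used matplotlib and promoter matches used Python. Every gene of the rule could be named, and up to 4 called genes of the other pathway lists per comparison. Members and lists were chosen with earlier results of these data known. In simulated arrays, 44% of genes changed by 1 log2 between Sus and Sox2GBC were recovered (88% for 2), and 42% between OMP-OBX and OMP (94% for 2). There, 50 of 11870 genes were changed at each size and all unchanged genes had equal group means. Far more genes were called in the data, so these rates do not give the power of the real comparisons.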

Additional observations from a re-analysis of the deposited data

How the results depend on the processing

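The alternatives were other background corrections, normalisations, filters, probe rules, blocks and weights, single arrays left out and, chosen after seeing the data, a fit without the 4 arrays of lowest noise. Over 86 calls of a Wnt gene in a comparison, 1598 alternative values were computed, of which 1465 kept direction and call, 133 kept direction only and 0 reversed. Counts of called Wnt genes moved by over 1.5 times as follows. Median scaling gave 4 for Neurog1-Ctrl against Sox2GBC and 3 for the mean of the sorts against OM. A block on noise class gave 5 for OMP against Neurog1-Ctrl. Averaging all probes gave 3 for the mean of the sorts against OM. Array weights gave 9 for Sox2GBC against OM, 10 for the mean of the sorts against OM, 3 for Neurog1-OBX, 1 for OMP-OBX and 1 for the interaction. Leaving out single arrays gave 7 to 9 for Neurog1-Ctrl against Sox2GBC, 4 to 10 for OMP against Neurog1-Ctrl, 17 to 18 for Sus against Sox2GBC, 18 to 19 for Sus against OMP, 0 to 0 for Neurog1-OBX and for the interaction, 0 to 1 for OMP-OBX, 4 to 7 for Sox2GBC against OM, 4 to 6 for the mean of the sorts and 17 to 21 for OM against mREF. The cause was not tested. Under median scaling the median difference of all genes lay between -0.18 and 0.22 log2, against -0.124 to 0.046 with quantile normalisation. Of all genes called, the share called higher was then 64.5% for Neurog1-Ctrl against Sox2GBC (46.9% with quantile normalisation), 64% for OMP against Neurog1-Ctrl (49.7%), 57.9% for Sus against Sox2GBC (44.5%), 36% for Neurog1-OBX (48.9%), 26.4% for OMP-OBX (49%), 30.6% for Sox2GBC against OM (51.4%), 17.9% for the mean of the sorts (38.9%) and 43.2% for the interaction (64.5%). With cyclic loess it was 35.4% for Neurog1-Ctrl against Sox2GBC, 60.4% for OMP against Neurog1-Ctrl, 26.4% for the mean of the sorts and 48.2% for the interaction. Replicate numbers were not taken as pairs in the main fit, since no groups compared directly had all same-numbered correlations over 0.1. OM and OMP, which meet in the mean of the sorts against OM, had 0.532, 0.106 and 0.247. Sus and mREF, which were not compared, had 0.311, 0.422 and 0.322. With 3 arrays a group, such correlations cannot exclude pairing. With the replicate block, the counts in the order of the text were 17, 18, 8, 9, 0, 0, 0, 5, 6 and 19. Without the 4 arrays of lowest noise they were 18, 19, 10, 10, 0, 0, 0, 7, 6 and 18. Equal counts did not mean equal calls. For OMP against Neurog1-Ctrl the calls of Sfrp1 and Wnt3a were then lost (limma adjusted p = 0.0881 and 0.0713). For the mean of the sorts those of Axin1 and Sfrp1 were lost (limma adjusted p = 0.0693 and 0.102). Other members were called in their place. With 3 arrays a group and signals of several genes near background, small changes after bulbectomy could be missed.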
